A study of Mus musculus with 12 samples.

Results

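The genes described here are 30 mouse genes of cholesterol and fatty acid metabolism, out of 35944 annotated genes in the 12 tumour libraries. They were chosen by name and not by a rule on their values, but with earlier results of these data known. They comprised 7 genes of the mevalonate steps, 10 genes of the squalene and sterol steps, 4 regulators or carriers of sterol, 7 genes of fatty acid synthesis and 2 sterol efflux pumps. All 30 had at least 10 reads in at least 3 libraries, the filter that left 15485 genes for testing.

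The libraries came from tumours of 4T1, a mouse mammary carcinoma cell line, grown from 100000 cells injected subcutaneously in the flank of female BALB/c mice, bought at an age of 6 to 8 weeks. Peritumoural injections of extracellular vesicles (EVs) from MS-1 cells, a mouse endothelial cell line, were given at 3 µg every 2 days until harvest on day 21. The EVs carried a mimic of cel-miR-67, a nematode miRNA (ctrl), or of 1 of the mouse miRNAs miR-222-3p, miR-183-5p and miR-142-5p, with 3 tumours in each of the 4 groups. Every mouse received electroporated EVs, so no group lacked them, and the libraries are bulk RNA from carcinoma, stromal and immune cells together. The labels do not say whether the 3 tumours of a group came from separate experiments, so p-values measure the spread between these tumours.

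Cholesterol is built from acetyl-CoA through mevalonate, isoprenoids, squalene and a series of sterols, and fatty acids from acetyl-CoA through malonyl-CoA. When membrane sterol falls, the transcription factors SREBP1 and SREBP2, encoded by Srebf1 and Srebf2, are released from the endoplasmic reticulum and induce these genes, SREBP2 mainly those of the sterol pathway and SREBP1 mainly those of fatty acids. When sterol is in excess, oxysterols activate the LXR receptors, which induce the efflux pumps Abca1 and Abcg1. The pathway is active in dividing tumour cells, and the efflux pumps are abundant in macrophages.

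To show the seeds, the mature mouse miRNAs of these names follow as given by RefSeq on GRCm38.p6, 5′ to 3′, with the seed (bases 2 to 8) in capitals. They are the natural miRNAs, and the synthetic mimics, which can differ from them in length, are not printed. The labels write miR-142-5p, which was matched to mmu-miR-142a-5p.
mmu-miR-142a-5p (chr11:87756867-87756887, plus strand): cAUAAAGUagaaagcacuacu
mmu-miR-183-5p (chr6:30169711-30169732, minus strand): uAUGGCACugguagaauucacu
mmu-miR-222-3p (chrX:19146901-19146923, minus strand): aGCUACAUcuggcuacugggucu

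The 3 seeds differ from each other. In the most abundant coding transcript of each gene, 3′ UTRs were searched for the reverse complement of the seed, with (8mer) or without (7mer-m8) an A after it. A match to miR-142-5p was present in 6 of 30 member genes (20%, against 14.3% of the 14486 tested coding genes with a UTR), to miR-183-5p in 4 (13.3%, against 9.35%) and to miR-222-3p in 5 (16.7%, against 9.60%). These matches are a description of letters and not of binding. The following windows in GRCm38 hold the seed match in capitals. They are the 8mer matches of the list and a selection of 7mer-m8 matches, those of Elovl6, Acaca and Abcg1. These genes had negative log2 fold changes with the matching mimic, so the selection does not represent all matches. Other 7mer-m8 matches, also in genes whose values are given in each tumour below, are not shown.
Hmgcs1, miR-142-5p (chr13:119706710-119706739, plus strand): ggctctgtagaACTTTATAcctctctggat
Abca1, miR-142-5p (chr4:53030849-53030878, minus strand): tattgtgaataACTTTATAtgacgtgtttt
Elovl6, miR-142-5p (chr3:129634227-129634255, plus strand): tcccccatgatACTTTATtactgggagaa
Acaca, miR-142-5p (chr11:84400881-84400909, plus strand): atccagtttcaACTTTATgactaatacat
Sc5d, miR-183-5p (chr9:42252802-42252831, minus strand): tttttaaaaatGTGCCATAaacagtctata
Abcg1, miR-183-5p (chr17:31115290-31115318, plus strand): tggaaggggagGTGCCATggatgtccccg
Hmgcs1, miR-222-3p (chr13:119707728-119707757, plus strand): ggtgataagtaATGTAGCAtttgtaagata
Srebf1 and Stard4 also held matches to miR-142-5p, Abca1 and Mvd to miR-183-5p, and Elovl6, Fdft1, Insig1 and Sc5d to miR-222-3p.

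For the promoters, 23 of the 30 genes matched an entry of RefSeq on GRCm38.p6, with 28 start sites in all, each covering 250 bases before and 50 bases after the start. The box CCAAT, bound by NF-Y, a factor that acts beside SREBP at many sterol genes, was searched on both strands. It was found in 20 of the 28 member promoters (71.4%, in 19 of 23 genes), against 37.4% of all 32851 promoters and 37.4% of those of tested genes. The sterol element TCACNCCAC, also searched on both strands, was found in the Hmgcs1 promoter and in no other member promoter, against 1.24% of all promoters. Abca1, Acaca, Acat2 and Elovl6, with 1 promoter each, held neither motif. The promoters of 4 genes that rose and fell together between tumours, as described below, are shown with CCAAT, as read on either strand, and the sterol element in capitals. In Fasn the boxes of the 2 strands overlap.
Hmgcs1 (chr13:119690101-119690400, plus strand): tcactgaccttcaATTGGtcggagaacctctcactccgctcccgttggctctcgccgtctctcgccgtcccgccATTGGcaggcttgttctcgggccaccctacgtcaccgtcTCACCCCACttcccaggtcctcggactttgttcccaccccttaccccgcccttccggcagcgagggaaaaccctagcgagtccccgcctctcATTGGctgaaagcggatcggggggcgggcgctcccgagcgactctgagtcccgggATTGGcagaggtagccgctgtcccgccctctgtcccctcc
Idi1 (chr13:8885356-8885655, plus strand): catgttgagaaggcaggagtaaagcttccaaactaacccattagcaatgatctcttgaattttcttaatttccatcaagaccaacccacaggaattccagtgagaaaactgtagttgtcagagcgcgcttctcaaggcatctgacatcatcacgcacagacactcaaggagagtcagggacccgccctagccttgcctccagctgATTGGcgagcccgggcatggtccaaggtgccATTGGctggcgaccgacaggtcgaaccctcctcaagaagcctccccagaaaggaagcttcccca
Msmo1 (chr8:64733529-64733828, minus strand): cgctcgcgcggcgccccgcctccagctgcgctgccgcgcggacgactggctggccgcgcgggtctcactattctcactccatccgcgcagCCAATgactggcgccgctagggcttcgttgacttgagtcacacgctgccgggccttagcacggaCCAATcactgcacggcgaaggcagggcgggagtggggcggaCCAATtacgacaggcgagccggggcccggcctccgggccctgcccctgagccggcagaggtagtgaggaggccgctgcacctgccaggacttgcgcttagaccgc
Fasn (chr11:120824498-120824797, minus strand): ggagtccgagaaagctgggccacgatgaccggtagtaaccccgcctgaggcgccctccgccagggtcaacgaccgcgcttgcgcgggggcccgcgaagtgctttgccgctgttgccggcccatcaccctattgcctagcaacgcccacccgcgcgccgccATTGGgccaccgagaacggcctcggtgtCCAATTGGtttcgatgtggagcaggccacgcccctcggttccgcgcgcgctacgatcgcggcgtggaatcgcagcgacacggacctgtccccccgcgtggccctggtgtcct

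The tumours expressed the whole sterol pathway at readily counted levels, and the levels differed far more between genes than between groups. In TPM, a transcript level corrected for length and library size, the mevalonate genes ranged from a mean of 15.5 for Mvk, mevalonate kinase, and 15.5 for Mvd, mevalonate diphosphate decarboxylase, to 140.2 for Fdps, farnesyl diphosphate synthase. Between them lay Acat2, a thiolase that joins acetyl-CoA units (21.4), Idi1, the isopentenyl diphosphate isomerase (31.3), Pmvk, phosphomevalonate kinase (42.8), and Hmgcs1, HMG-CoA synthase (61.6). Of the sterol genes, Hsd17b7, a ketoreductase, was lowest at 5.17 TPM and Msmo1, the C4 methyl sterol oxidase, highest at 54.1 TPM. Lss (lanosterol synthase), Nsdhl (a C4 decarboxylase), Sc5d (the sterol C5 desaturase) and Cyp51 (the lanosterol demethylase) had means of 11.9, 17.1, 20.1 and 21.2 TPM. Dhcr7 (the last reductase), Sqle (squalene epoxidase), Fdft1 (squalene synthase) and Ebp (a sterol isomerase) had means of 29.0, 36.8, 44.7 and 45.8 TPM.

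The regulators were at similar levels, with mean TPM of 44.5 for Srebf2, 50.5 for Insig1, which holds SREBP in the endoplasmic reticulum, and 52.0 for Srebf1. Stard4, a sterol carrier, had a mean of 12.6 TPM. In fatty acid synthesis, Scd2, a stearoyl-CoA desaturase, was the most abundant of the 30 genes at 151 TPM, followed by Fasn, fatty acid synthase, at 82.5 TPM and Acly, ATP citrate lyase, at 69.9 TPM. Scd1, the sister desaturase, had a mean of 19.3 TPM, Acss2, an acetyl-CoA synthetase, 14.9 TPM, Acaca, acetyl-CoA carboxylase, 10.2 TPM and Elovl6, a fatty acid elongase, 9.67 TPM. The efflux pumps Abca1 and Abcg1 had means of 14.0 and 8.23 TPM. Within a group, tumours varied most for Fdps and least for Scd2, whose within-group SDs of log2 normalised counts were 0.60 and 0.15.

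Tumours of 1 group often lay at opposite ends of the range for the sterol genes. Fdps (chr3:89093588-89101959 on GRCm38, minus strand), which makes the farnesyl units of sterols and of prenylated proteins, is the example with the widest within-group spread. In ctrl tumours 1 to 3 it had 144, 201 and 79.0 TPM, in miR-142-5p tumours 148, 74.7 and 125 TPM, in miR-183-5p tumours 135, 130.2 and 229.9 TPM, and in miR-222-3p tumours 83.3, 179.9 and 151 TPM. The ctrl tumours spanned nearly the whole range of the treated tumours, and every group overlapped every other.

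Msmo1 (chr8:64718139-64733792, minus strand) followed a similar order. It had 57.3, 73.7 and 28.8 TPM in ctrl, 53.1, 37.4 and 48.4 TPM in miR-142-5p, 53.8, 50.4 and 75.9 TPM in miR-183-5p and 37.8, 69.0 and 63.8 TPM in miR-222-3p tumours. Ctrl tumour 2, miR-183-5p tumour 3 and miR-222-3p tumour 2 were the 3 highest of the 12 for Msmo1 and for Fdps. Ctrl tumour 3, miR-142-5p tumour 2 and miR-222-3p tumour 1 were the 3 lowest for both.

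**Figure D1:**
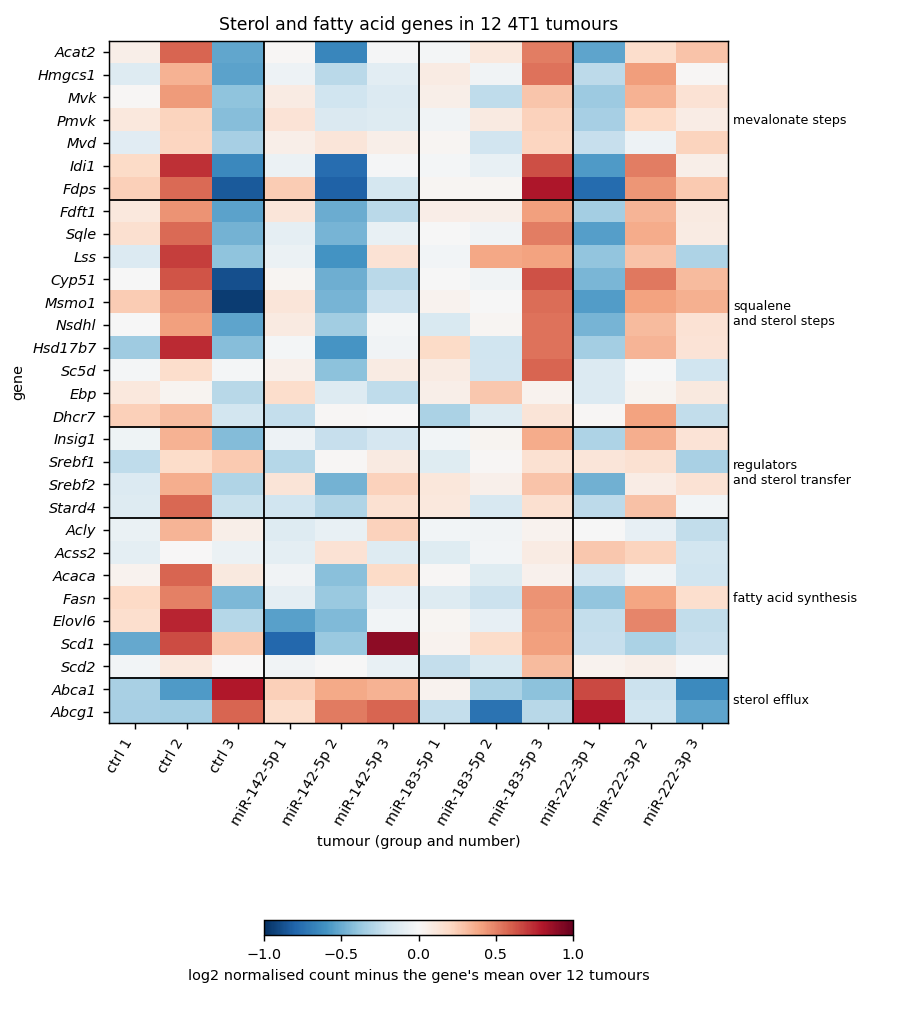
Heat map of the 30 genes (rows, by role) in 12 tumours (columns, by group), with colour giving the log2 normalised count minus the mean of that gene over the 12 tumours. The columns of ctrl tumour 2 and miR-183-5p tumour 3 are red and that of ctrl tumour 3 is blue over most sterol genes, and the 2 efflux pumps show the opposite colours.

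The first question was whether the mimics changed these genes. No member gene passed the test between a mimic group and ctrl. With DESeq2 and Benjamini-Hochberg adjustment over all tested genes, 0 of 30 members passed an adjusted p-value of 0.05 in any of the 3 contrasts against ctrl, where the smallest adjusted p-values were 0.999956 (miR-142-5p), 0.999999 (miR-183-5p) and 0.999965 (miR-222-3p). Among all genes tested, 0.0259% passed in the miR-222-3p contrast, 0.00648% in that of miR-142-5p and 0.0% in that of miR-183-5p. No member passed in the contrasts between mimics either, where 0.0518% (miR-183-5p against miR-142-5p), 0.0324% (miR-183-5p against miR-222-3p) and 0.0389% (miR-142-5p against miR-222-3p) of all genes did. In the likelihood ratio test of any difference among the 4 groups, 0 members passed, against 0.0583% of all genes. With edgeR and with limma no member was called in any of these tests.

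Before adjustment, 1 of 30 members had a p-value under 0.05 in miR-142-5p against ctrl (all genes, 3.58%), 0 in miR-183-5p against ctrl (all genes, 3.21%), 1 in miR-222-3p against ctrl (all genes, 2.31%) and 0 in the test over 4 groups (all genes, 4.74%). Counting genes whose 3 treated and 3 ctrl tumours did not overlap gave 0 members higher and 0 lower in miR-142-5p (all genes, 3.13% and 2.94%), 0 and 0 in miR-183-5p (4.44% and 4.77%), and 0 higher and 1 lower in miR-222-3p (2.95% and 2.57%). A share of 1 in 30 is near the background, and 0 in 30 cannot be told from it.

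The intervals show what sizes of change 3 tumours a group could have missed. For Fdps in miR-142-5p against ctrl the log2 fold change was -0.28 with a 95% interval from -1.20 to 0.64, and for Msmo1 -0.20 with an interval from -0.85 to 0.45. For Scd2, which varied little, the interval ran from -0.34 to 0.20. Standard errors of the 30 log2 fold changes against ctrl lay between 0.14 and 0.47.

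**Figure D2:**
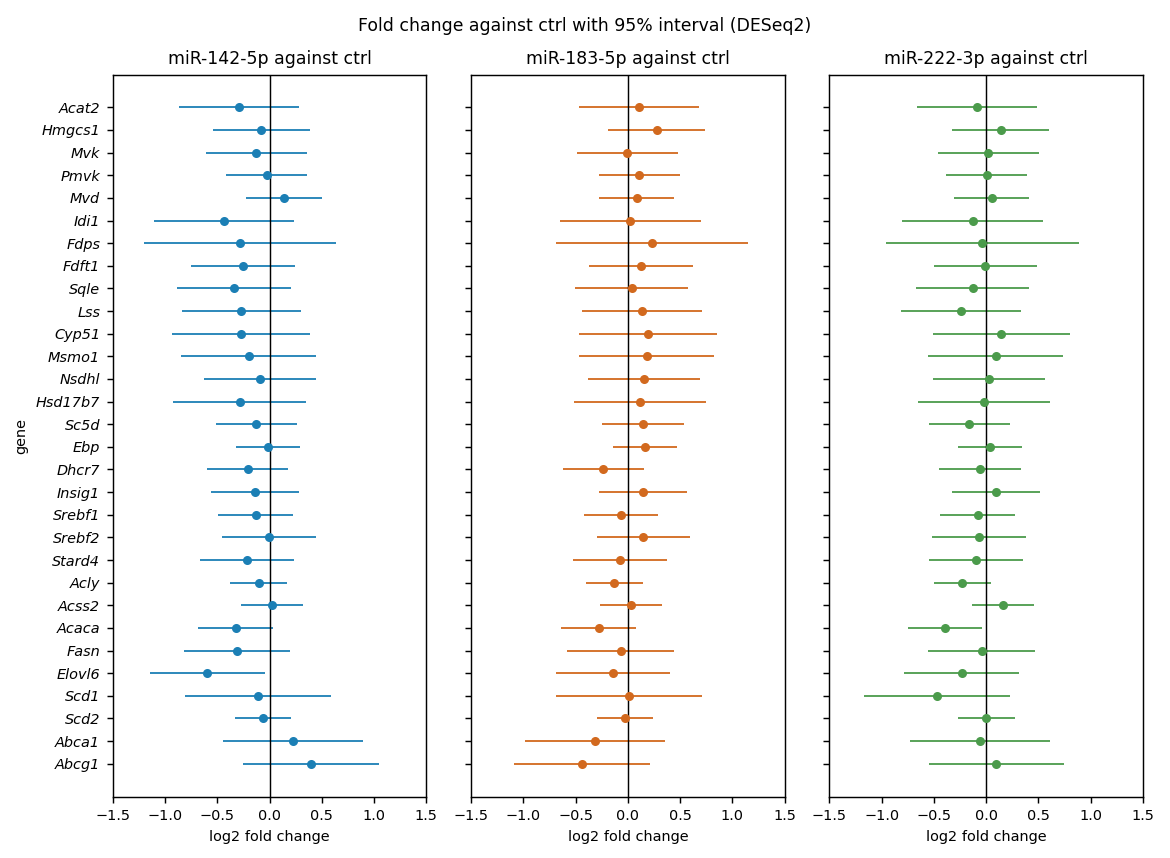
Log2 fold change of each gene against ctrl (points) with its 95% interval (lines), 1 panel for each mimic, from the DESeq2 fit of all 12 tumours. All intervals include 0 except those of Elovl6 in miR-142-5p and Acaca in miR-222-3p tumours, neither of which passed adjustment.

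The member with an unadjusted p-value under 0.05 in miR-142-5p tumours was Elovl6 (chr3:129532355-129638495, plus strand), which lengthens palmitate. It had 9.65, 16.3 and 8.15 TPM in ctrl and 5.99, 6.77 and 9.79 TPM in miR-142-5p tumours, so that the groups overlapped. In miR-183-5p tumours it had 9.52, 8.51 and 12.3 TPM, and in miR-222-3p tumours 8.47, 13.1 and 7.48 TPM. The log2 fold change of miR-142-5p against ctrl was -0.60 ± 0.28 (SE, n = 3 tumours a group), with a 95% interval from -1.15 to -0.05 and a DESeq2 adjusted p = 0.999956. Without ctrl tumour 2 it was -0.28, and with any other tumour of these groups left out it lay between -0.81 and -0.50. This 3′ UTR carries the 7mer-m8 match to miR-142-5p printed above.

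In miR-222-3p tumours it was Acaca (chr11:84129672-84401651, plus strand), which makes malonyl-CoA. All 3 tumours were lower than all ctrl tumours in normalised counts, at 1250.3, 1369 and 1219 against 1436, 2102 and 1499. On the TPM scale the values were 9.61, 9.84 and 8.35 against 9.52, 15.5 and 11.5, so that on this scale the groups overlapped. The log2 fold change was -0.39 ± 0.18 (SE, n = 3 tumours a group), with a 95% interval from -0.75 to -0.04 and a DESeq2 adjusted p = 0.999965. In miR-142-5p tumours Acaca had 9.19, 7.46 and 12.3 TPM (log2 fold change -0.32), and in miR-183-5p tumours 10.2, 8.97 and 10.3 TPM (log2 fold change -0.28), and neither difference passed the test. Ctrl tumour 2 was the highest of the 12 for this gene, and without it the log2 fold changes were -0.20 in miR-222-3p and -0.09 in miR-183-5p tumours. The 3 contrasts share the ctrl tumours.

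Idi1, Lss and Scd1 were among the 3 largest log2 fold changes in size of a contrast, without passing any threshold. Idi1 (chr13:8885501-8892451, plus strand) in miR-142-5p tumours had 26.8, 17.4 and 31.7 TPM against 31.5, 50.9 and 20.4 TPM in ctrl (log2 fold change -0.44 ± 0.34, SE), and the value was -0.07 without ctrl tumour 2, -0.23 without miR-142-5p tumour 2 and -0.72 without ctrl tumour 3. Lss (chr10:76531588-76557138, plus strand) in miR-222-3p tumours had 9.36, 14.1 and 8.88 TPM against 9.70, 19.1 and 9.30 TPM in ctrl (-0.24 ± 0.29), and without ctrl tumour 2 this difference had the opposite sign (0.15). Scd1 (chr19:44394455-44407879, minus strand) in miR-222-3p tumours had 16.5, 14.5 and 14.7 TPM against 11.7, 29.1 and 23.1 TPM in ctrl (-0.47 ± 0.36), with -0.18 without ctrl tumour 2 and -0.73 without ctrl tumour 1. All of these groups overlapped with ctrl.

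Scd1 and Scd2 share a stretch of 623 bases at 95.5% identity, so the split of reads between them is uncertain. Scd1 had the widest TPM range of the 30 genes over the 12 tumours, 3.66-fold. It reached 35.9 TPM in miR-142-5p tumour 3 and 9.81 TPM in miR-142-5p tumour 1, with 13.8 TPM in the other tumour of that group and 18.7, 19.9 and 23.7 TPM in the miR-183-5p tumours.

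By role, the directions of the uncalled differences were as follows. The 17 genes of cholesterol synthesis had a median log2 fold change of -0.21 in miR-142-5p tumours (16 of 17 below 0), 0.12 in miR-183-5p (15 of 17 above 0) and -0.01 in miR-222-3p (8 of 17 above 0), beside medians of 0.00, -0.01 and -0.01 over all genes tested. The 7 genes of fatty acid synthesis had medians of -0.11, -0.07 and -0.23. These counts do not stand for 17 separate observations, because the genes share each tumour and move together, and 1 tumour moved the medians across 0. Without ctrl tumour 2 the cholesterol median was 0.07 in miR-142-5p tumours and 0.23 in miR-222-3p tumours. Without ctrl tumour 3 it was -0.09 in miR-183-5p and -0.19 in miR-222-3p tumours, and without miR-183-5p tumour 3 it was -0.06 in the miR-183-5p group. Leaving out miR-222-3p tumour 1 or 2 gave 0.15 or -0.17 in that group. The fatty acid median in miR-222-3p tumours was 0.04 without ctrl tumour 2, and in miR-142-5p tumours -0.36 without tumour 3.

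**Figure D3:**
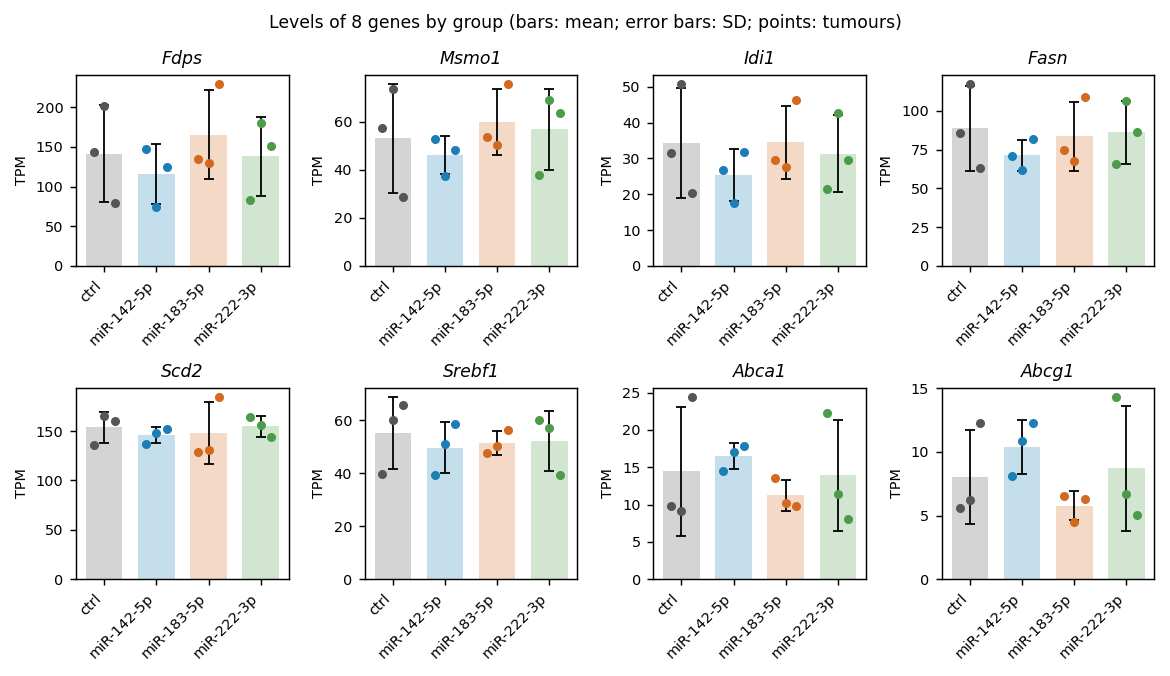
TPM of 8 genes in the 4 groups, with bars for the mean, error bars for the SD and points for the 3 tumours of a group. For Fdps, Msmo1, Idi1 and Fasn the points of ctrl span most of the range of all tumours, whereas Scd2 and Srebf1 differ less.

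The contrast between the mimics with the largest differences in this list was miR-183-5p against miR-142-5p. Here 25 of 30 members were higher in miR-183-5p tumours in sign, with a median log2 fold change of 0.38 for the 17 cholesterol genes, and the adjusted p-values ran from 0.417 to 0.998. In normalised counts the sterol genes Hmgcs1 and Sqle and the regulator Insig1 did not overlap between the groups and were higher in miR-183-5p tumours (3 of 30, all genes 5.92%). The efflux pumps Abca1 and Abcg1 did not overlap either and were lower (2 of 30, all genes 6.44%).

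Hmgcs1 had 64.3, 57.2 and 86.8 TPM in miR-183-5p and 54.4, 49.5 and 59.9 TPM in miR-142-5p tumours, which overlap on the TPM scale, and its log2 fold change was 0.36 ± 0.24 (SE). Abcg1 (chr17:31057675-31117988, plus strand), which hands cholesterol to high-density lipoprotein, had 6.56, 4.47 and 6.28 TPM in miR-183-5p and 8.09, 10.9 and 12.3 TPM in miR-142-5p tumours. In ctrl it had 5.63, 6.24 and 12.3 TPM, and in miR-222-3p tumours 14.3, 6.71 and 5.08 TPM. Against ctrl its log2 fold changes were 0.40 ± 0.33 (SE) in miR-142-5p and -0.44 ± 0.33 in miR-183-5p tumours. Without ctrl tumour 3 these values were 0.77 and -0.06. The first was 0.24 without ctrl tumour 1 or without ctrl tumour 2. The difference of Abcg1 between miR-183-5p and miR-142-5p tumours was -0.84 ± 0.33 on the log2 scale (SE, n = 3 tumours a group), with a 95% interval from -1.48 to -0.19 and a DESeq2 adjusted p = 0.417. It was the 1 member with an unadjusted p-value under 0.05 here, and 7.94% of all genes were under that value.

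Abca1 (chr4:53030787-53159895, minus strand), which loads lipid onto apolipoproteins, had 13.6, 10.3 and 9.81 TPM in miR-183-5p and 14.5, 17.0 and 17.9 TPM in miR-142-5p tumours, with a log2 difference of -0.54 ± 0.34 (SE, DESeq2 adjusted p = 0.802). Its levels in ctrl were 9.74, 9.16 and 24.4 TPM, so that ctrl tumour 3 lay above every tumour of both mimic groups. In a DESeq2 fit of the 6 tumours of these 2 groups alone, which leaves out the ctrl and miR-222-3p tumours, Abcg1 and Abca1 passed, with adjusted p-values of 0.0163 and 0.04998, among 70 of 14312 genes tested in that fit. Over the 18 alternatives the adjusted p-value of Abcg1 ran from 0.0163 to 0.909 and that of Abca1 from 0.04998 to 1.

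Markers of other cell types moved in this contrast as well. The summed TPM of 8 macrophage markers was 1683, 2206 and 1544 in miR-142-5p and 1456, 1393 and 996 in miR-183-5p tumours, which do not overlap, and lay between 1414 and 1792 in ctrl and between 1279 and 1901 in miR-222-3p tumours. Of the 8, 4 were under an unadjusted DESeq2 p-value of 0.05 (all genes, 7.94%), with a median log2 fold change of -0.53, and none was at 0. This macrophage sum was mostly C1qa and C1qb, with means of 728 and 505 TPM over the 12 tumours. Cd14 went the other way, with a mean of 94.1 TPM in miR-183-5p and 86.5 TPM in miR-142-5p tumours. Fibroblast markers were higher in miR-183-5p tumours (649 to 757 against 225 to 529 TPM), as were neutrophil markers (1881 to 3045 against 1021 to 1662 TPM) and adipocyte markers (87.98 to 96.96 against 54.6 to 87.0 TPM), without overlap. The neutrophil sum was mostly S100a8 and S100a9. Of the other neutrophil markers, Cxcr2 and Csf3r overlapped between these groups in TPM, and Retnlg and Mmp8 did not. The adipocyte sum was mostly Fabp4, which overlapped. The fibroblast sum was mostly Col1a1 and Col3a1. Mean TPM of Pdgfrb, Dcn and Lum was also higher in miR-183-5p than in miR-142-5p tumours. That of Pdgfra was lower, at 14.3 against 17.1 TPM. Skeletal muscle markers summed to 308 TPM in miR-183-5p tumour 3 and to between 9.73 and 12.4 TPM in the other 5 tumours, and miR-183-5p tumour 3 was also the highest of the 6 for Hmgcs1 and Sqle (50.6 TPM). In bulk tumours fewer cells of a type and less RNA per cell cannot be told apart, and the part of these cell types in the Abca1, Abcg1 and sterol gene values was not tested.

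The second question was how the members varied across tumours irrespective of group. The genes of cholesterol synthesis rose and fell together. Over the 12 tumours the median Pearson r among their 136 pairs was 0.80, with 135 pairs positive, while over all 119884870 pairs of tested genes the median was -0.0009. Taken as deviations from the group means the median was 0.81, without miR-183-5p tumour 3 it was 0.78 and without ctrl tumour 2 it was 0.77. These values are descriptions, since all genes are read from the same 12 libraries.

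These genes also varied more within groups than the median gene. The median within-group SD of log2 normalised counts was 0.38 for the 17 cholesterol genes, 0.22 for the 7 fatty acid genes and 0.24 for all tested genes, or 0.18 for the 9319 tested genes at least as abundant in mean count as the lowest member. Averaged over the 17 genes, ctrl tumour 2 lay 0.44 above the mean on the log2 scale, with all 17 genes above their own mean, and miR-183-5p tumour 3 lay 0.45 above with all 17. In miR-222-3p tumour 2 the average was 0.30 with 15 of 17 genes above.

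At the other end ctrl tumour 3 lay at -0.49 with 0 of 17 genes above their mean, miR-142-5p tumour 2 at -0.39 with 2, and miR-222-3p tumour 1 at -0.38 with 1. The ctrl group alone spanned 1.91-fold, and all 12 tumours spanned 1.92-fold. The span was 1.35-fold within miR-142-5p, 1.37-fold within miR-183-5p and 1.59-fold within miR-222-3p tumours. The 3 highest tumours came from 3 groups and the 3 lowest from 3 groups, and each pair of groups overlapped.

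Not all members took part to the same extent. Set against the mean of the other cholesterol genes, 11 of the 17 had an r of at least 0.9, led by Sqle (0.98), Idi1 (0.98), Nsdhl (0.97), Cyp51 (0.97), Fdps (0.97) and Fdft1 (0.97), where 0.375% of the 15468 other tested genes reached 0.9 against the mean of all 17. The late enzymes followed less, with r of 0.63 for Sc5d, 0.53 for Ebp and 0.44 for Dhcr7, as did Mvd with 0.61. Acat2, Hmgcs1, Mvk, Pmvk and Msmo1 had r between 0.92 and 0.95, and Hsd17b7 and Lss 0.88 and 0.81.

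The regulators differed. Srebf2, the sterol regulator, had an r of 0.85 with the cholesterol genes, Insig1 0.97 and Stard4 0.80. Srebf1 (chr11:60199089-60222581, minus strand) had an r of -0.06. In ctrl it had 39.8, 59.9 and 65.6 TPM, in miR-142-5p 39.3, 51.1 and 58.5 TPM, in miR-183-5p 47.5, 50.2 and 56.3 TPM and in miR-222-3p tumours 59.9, 57.1 and 39.2 TPM. Its highest tumour was thus ctrl tumour 3, the lowest for most sterol genes.

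The fatty acid genes differed as well. Fasn followed the sterol genes (r = 0.95), with 118 TPM in ctrl tumour 2, 109 TPM in miR-183-5p tumour 3 and 61.6 TPM in miR-142-5p tumour 2, and Elovl6 followed with an r of 0.78. Acaca had 0.51 and Scd2 0.43. Scd1 (0.20), Acly (0.18) and Acss2 (-0.07) were nearer 0. The median r among the 21 pairs of fatty acid genes was 0.44, and 0.24 without ctrl tumour 2.

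Scd2 (chr19:44293674-44306864, plus strand), the most abundant member, varied least within groups. It had 136, 165 and 161 TPM in ctrl, 137, 148 and 152 TPM in miR-142-5p, 128, 131 and 185 TPM in miR-183-5p and 165, 156 and 143 TPM in miR-222-3p tumours. The highest value was that of miR-183-5p tumour 3, a library that also held skeletal muscle RNA: the summed TPM of 6 muscle markers was 308 there and between 7.90 and 15.5 in the other 11 libraries. Without this library the r of Scd2 with the cholesterol genes was 0.15.

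**Figure D4:**
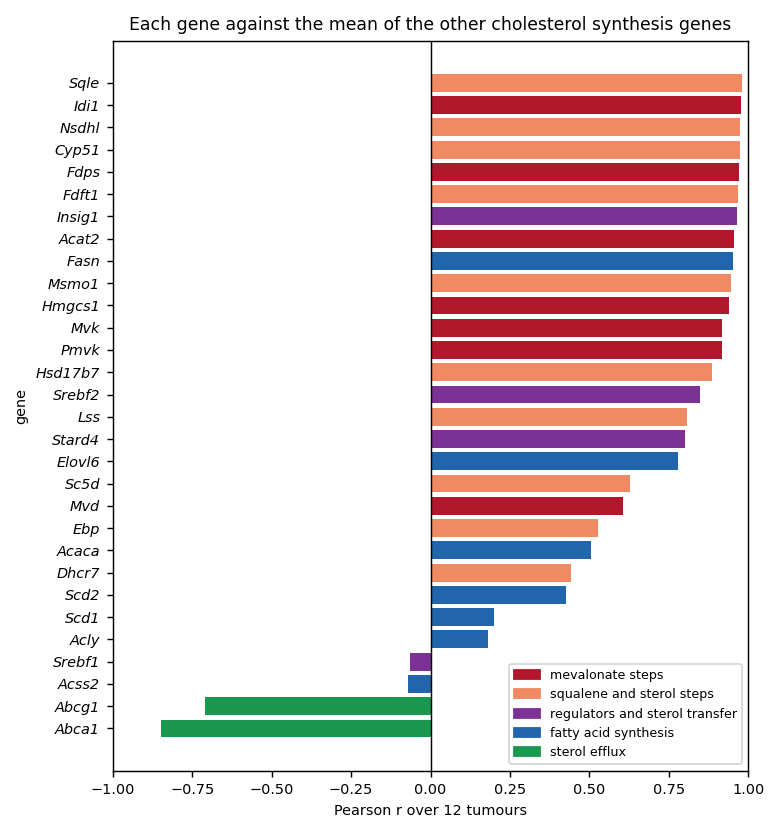
Pearson r over 12 tumours of each gene with the mean of the other cholesterol synthesis genes, ordered by size and coloured by role. The bars run from 0.98 for Sqle to -0.85 for Abca1, with Srebf1 and Acss2 near 0.

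The efflux pumps ran opposite to synthesis. Abca1 had an r of -0.85 and Abcg1 of -0.71 with the mean of the cholesterol genes, and 0 of the 34 pairs of a cholesterol gene with a pump were positive (median r -0.73). Abca1 was highest in ctrl tumour 3 with 24.4 TPM and miR-222-3p tumour 1 with 22.3 TPM, both low in sterol genes, and was 9.16 TPM in ctrl tumour 2. In miR-222-3p tumours 2 and 3 it had 11.4 and 8.09 TPM.

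For the most abundant gene of each role, relations with each other and with cell type markers between tumours were tested by permutation (100000 permutations, two-sided, 60 relations with 12 tumours each, Benjamini-Hochberg adjusted). Fdps and Msmo1 had a Pearson r of 0.97 and a Spearman rho of 0.98, both with p = 1e-05, the smallest that these permutations can give, and adjusted p = 0.0006, and r was 0.98 without the 2 tumours farthest from the Fdps median. Fdps and Abca1 had r = -0.85 (permutation p = 0.0005, adjusted p = 0.00744) and rho = -0.85 (permutation p = 0.00072, adjusted p = 0.0108), and r was -0.79 without the 2 farthest tumours. As deviations from the group means r was -0.84.

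Msmo1 and Abca1 had r = -0.91 (permutation p = 6e-05, adjusted p = 0.0018) and rho = -0.87 (permutation p = 0.00058, adjusted p = 0.0108), and r was -0.82 without the 2 farthest tumours. Relations of Srebf1 or Scd2 with the other 4 genes did not pass: r lay at -0.22 for Fdps and Srebf1 (permutation adjusted p = 0.688), at 0.37 for Fdps and Scd2 (0.520) and at 0.32 for Srebf1 and Abca1 (0.520).

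Other sterol and lipid genes, a list of 34 of which 33 were tested, were examined in the same way. None passed adjustment in any contrast against ctrl. Acacb, the other acetyl-CoA carboxylase, was the 1 gene of this list under an unadjusted p-value of 0.05 (miR-183-5p), with 1.46, 2.24 and 2.09 TPM in miR-183-5p against 1.04, 1.31 and 1.72 TPM in ctrl (log2 fold change 0.55 ± 0.27, SE, DESeq2 adjusted p = 0.999999).

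Across tumours, the fatty acid desaturase Fads2 (r = 0.97) and the sterol-regulated Tmem97 (0.89) ran with the mean of the cholesterol genes. Mylip, a ubiquitin ligase, ran against them (r = -0.89), with 38.2 TPM in ctrl tumour 3 and 12.6 TPM in ctrl tumour 2, as did the acyl-CoA synthetase Acsl3 (-0.85). An r of at least 0.8 was found in 2.94% of all other tested genes and one of -0.8 or lower in 2.18%. Genes of the SREBP machinery differed: Scap had an r of 0.56, Mbtps1 -0.01, Mbtps2 -0.10 and Insig2 -0.36. The LXR genes Nr1h2 and Nr1h3 had -0.20 and -0.54.

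Markers of cell types moved with this variation, and their values are given for that reason. The summed TPM of 6 markers of dividing cells was highest in ctrl tumour 2 (1061) and miR-183-5p tumour 3 (909) and lowest in ctrl tumour 3 (521) and miR-222-3p tumour 1 (528), and ran from 557 to 775 in miR-142-5p and from 765 to 909 in miR-183-5p tumours. Fdps and this sum had r = 0.83 (permutation p = 0.00062, adjusted p = 0.00744) and rho = 0.85 (permutation p = 0.00071, adjusted p = 0.0108), and r was 0.74 without the 2 farthest tumours. Macrophage markers, with a sum mostly of C1qa and C1qb, ran the other way. Their r with Fdps was -0.76 (permutation p = 0.00347, adjusted p = 0.0208) and rho was -0.71 (adjusted permutation p = 0.0692). With Msmo1 their r was -0.67 (adjusted permutation p = 0.067). With Abca1 it was 0.67 (adjusted permutation p = 0.0631), and rho was 0.79 (adjusted permutation p = 0.0315).

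The 5 endothelial markers, with sums from 90.4 to 145 TPM, had r = -0.78 with Fdps (permutation p = 0.0031, adjusted p = 0.0208), rho = -0.69 (adjusted permutation p = 0.0779) and r = 0.85 with Abca1 (permutation p = 0.00054, adjusted p = 0.00744). Their sum was mostly Pecam1 and Cdh5, with means of 45.5 and 32.0 TPM. Emcn varied less, from 26.1 to 33.4 TPM, with 28.8 TPM in ctrl tumour 3 and 28.2 TPM in ctrl tumour 2. It was highest in miR-142-5p tumour 1, where Fdps had 148 TPM. Fibroblast markers, with sums from 225 to 967 TPM, had r = 0.78 with Fdps (permutation p = 0.00333, adjusted p = 0.0208) and rho = 0.71 (adjusted permutation p = 0.0692). That sum was mostly Col1a1 and Col3a1, with means of 208 and 252 TPM. Pdgfrb, like the sum, was lowest in miR-142-5p tumour 2 (8.58 TPM) and highest in miR-222-3p tumour 3 (22.8 TPM). Pdgfra went the other way, at 25.7 TPM in ctrl tumour 3, 25.2 TPM in miR-222-3p tumour 1 and 10.8 TPM in ctrl tumour 2. Carcinoma epithelium markers, with sums from 1602 to 2501 TPM, had r = 0.49 with Fdps (permutation adjusted p = 0.319). No marker of these lists was at 0 in a group. Their part in the variation of the sterol genes was not tested.

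Adipocytes and sebaceous glands make lipid, so their markers were read too. The sums were 54.6 to 96.96 TPM for 8 adipocyte markers and 3.71 to 5.80 TPM for 6 sebaceous gland markers, and their r with Fdps was -0.04 and -0.36. The adipocyte sum was mostly Fabp4, with a mean of 64.5 TPM. The more specific Cfd was highest in miR-183-5p tumour 3 (28.4 TPM) and ctrl tumour 2 (22.7 TPM) and lowest in miR-222-3p tumour 1 (3.91 TPM). Adipoq was at 2.77 TPM in miR-183-5p tumour 3, 2.71 TPM in miR-183-5p tumour 2, 1.57 TPM in ctrl tumour 2 and 0.44 TPM in miR-222-3p tumour 1, its lowest. Plin1 went the other way between these tumours, at 0.90 TPM in miR-222-3p tumour 1, 0.57 TPM in miR-183-5p tumour 3 and 0.52 TPM in ctrl tumour 2. Its highest value was in miR-222-3p tumour 2 (1.06 TPM), which was high in sterol genes, so these markers did not share 1 order. The part of adipocytes and sebaceous glands in the sterol gene values was not tested. Neutrophil markers, from 882 to 3045 TPM, had an r of 0.09 with Fdps, and epidermal keratinocyte markers, from 12.9 to 42.8 TPM, an r of 0.68 (permutation adjusted p = 0.0670).

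**Figure D5:**
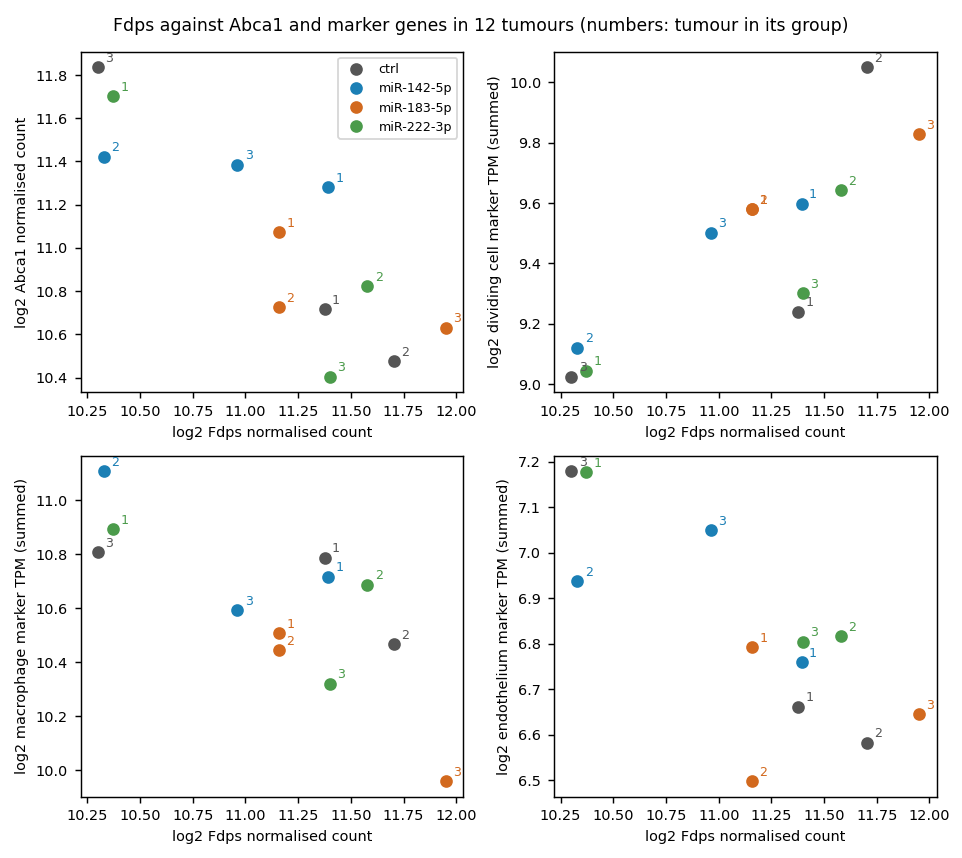
Log2 normalised count of Fdps (horizontal axis) in 12 tumours against the log2 normalised count of Abca1 and the log2 summed TPM of markers of dividing cells, macrophages and endothelium, coloured by group and numbered by tumour. Ctrl tumour 3, miR-142-5p tumour 2 and miR-222-3p tumour 1 sit at the left, with high Abca1 and few dividing-cell transcripts, and ctrl tumour 2 and miR-183-5p tumour 3 at the right.

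Library facts that touch these values were few. Estimated reads ran from 20285968 to 27021401 per library, and the least covered member, Hsd17b7, had at least 196 reads in every library. In 8 libraries between 7.13% and 41.8% of the reads of the mitochondrial gene mt-Co2 and its near copy Gm28661 fell on the copy, and in the other 4, the 3 miR-222-3p libraries and miR-183-5p tumour 3, at most 0.324%. The miR-222-3p mimic and this set of libraries cannot be told apart. Within the 8 libraries r was -0.83 for Fdps and Abca1 and 0.96 for Fdps and Msmo1.

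Seed matches and fold changes are given side by side, without a test. The 6 genes with a match to miR-142-5p had log2 fold changes against ctrl of -0.60 (Elovl6), -0.32 (Acaca), -0.22 (Stard4), -0.13 (Srebf1), -0.08 (Hmgcs1) and 0.22 (Abca1) in miR-142-5p tumours. The 4 with a match to miR-183-5p had -0.44 (Abcg1), -0.32 (Abca1), 0.08 (Mvd) and 0.15 (Sc5d) in miR-183-5p tumours, where the sign for Abca1 turned to 0.22 without ctrl tumour 3. The 5 with a match to miR-222-3p had -0.23 (Elovl6), -0.16 (Sc5d), -0.01 (Fdft1), 0.09 (Insig1) and 0.14 (Hmgcs1) in miR-222-3p tumours. None of these differences passed adjustment.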

How the data were processed

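Stranded mRNA libraries were prepared from polyadenylated RNA of 12 4T1 tumours. The authors quantified the reads with Salmon against a GRCm38 transcriptome, and the deposited tables give an estimated count, a TPM value and an effective length for each of 118783 transcripts. The methods and the deposited files name different Ensembl releases, so transcripts were matched by identifier to GENCODE M21 (116710 matched, 98.3%), and unmatched ones were not used here. The estimated counts deposited by the authors were added up by gene and rounded, and the TPM deposited by the authors were added up likewise. Genes with at least 10 counts in at least 3 libraries were kept. DESeq2 1.42.0 (Wald test, unshrunken, effective length as offset, R 4.3.3) was fitted to all 12 libraries at once with no term but group. Benjamini-Hochberg adjustment ran over all tested genes, with a threshold of 0.05. Normalised counts are counts divided by the size and length factors of that fit. Intervals of 95% are the log2 fold change ± 1.96 standard errors. Correlations used log2(normalised count + 1), and log2(summed TPM + 1) for markers.

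The member genes, role lists and marker lists were chosen with earlier results of these data known. The genes with values in each tumour were those with an unadjusted p-value under 0.05 in a contrast against ctrl or in the likelihood ratio test, the 3 largest log2 fold changes of each contrast against ctrl, and the most abundant gene of each role. Of the other pathway genes, those with an unadjusted p-value under 0.05 against ctrl were named. Further genes named for their correlation, for the contrast of miR-183-5p with miR-142-5p or for a motif were picked after their values were seen. Some genes of the pathway are not analysed here. Alternatives were edgeR 4.0.16 (quasi-likelihood test, TMM), TMM factors in DESeq2, a block for the replicate number, a fit without the length offset, no count filter, limma 3.58.1 on log2(TPM + 1), a fit of only those groups being compared, a minimum of 50 counts in all libraries, omission of single tumours, coding genes alone, a threshold of 0.1, and near-identical copies (BLAST 2.17.0, at least 95% identity over at least 200 bases) added to the member. Adding pseudogene copies alone was chosen after the data were seen. The test scripts were tested on simulated data. The depth per library ran from 20285968 to 27021401 reads, and no 2 libraries agreed within counting noise.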

Additional observations from a re-analysis of the deposited data

How the results depend on the processing

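The count of member genes called stayed at 0 in every contrast and in the test over 4 groups in 130 of the 131 counts made under alternatives. The exception came from the fit of only the groups compared for miR-183-5p versus miR-142-5p, which called 2, Abcg1 and Abca1. Counts over all genes moved more. With edgeR and with limma they were 0 in each contrast (as reported: against ctrl 4 with miR-222-3p, 1 with miR-142-5p and 0 with miR-183-5p, then 8 for miR-183-5p versus miR-142-5p, 5 for miR-183-5p versus miR-222-3p and 6 for miR-142-5p versus miR-222-3p). With only the groups compared they were 37 in miR-183-5p and 15 in miR-222-3p against ctrl, 70 for miR-183-5p versus miR-142-5p, 17 in miR-183-5p against miR-222-3p and 14 in miR-142-5p against miR-222-3p. With a minimum of 50 counts in all libraries they were 0, and with coding genes alone 0, in the same contrasts, namely miR-222-3p against ctrl and both contrasts of a mimic with miR-222-3p. Without the length offset they were 0 in miR-142-5p against ctrl and 4 for miR-183-5p versus miR-142-5p, without a count filter 5 in the latter, and at a threshold of 0.1 they were 38 in the latter and 7 in miR-222-3p against ctrl. Leaving out 1 of the 6 tumours of a contrast at a time gave against ctrl 2 to 6 for miR-222-3p, 0 to 15 for miR-183-5p and 0 to 76 for miR-142-5p, 0 to 414 for miR-183-5p versus miR-142-5p (414 without miR-142-5p tumour 1), 1 to 15 in miR-183-5p against miR-222-3p and 2 to 75 in miR-142-5p against miR-222-3p. Leaving out a tumour of a group outside the contrast widened 2 of these ranges, to 2 to 16 for miR-222-3p against ctrl (16 without miR-183-5p tumour 3) and to 0 to 17 for miR-183-5p versus miR-222-3p.

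The median log2 fold change of the cholesterol genes stayed between -0.25 and -0.17 in miR-142-5p, between 0.11 and 0.15 in miR-183-5p and between -0.01 and 0.03 in miR-222-3p tumours under the other alternatives, and ran from -0.48 to 0.07, from -0.09 to 0.39 and from -0.19 to 0.23 when 1 tumour was left out. That of the fatty acid genes ran, in the same order of groups, from -0.36 to -0.030, from -0.22 to 0.06 and from -0.29 to 0.042 when 1 tumour was left out. Of the single-gene differences, 2 changed sign: Abca1 in miR-183-5p against ctrl without ctrl tumour 3 (0.22, with a range of -0.56 to 0.22 over single tumours left out) and Lss in miR-222-3p against ctrl without ctrl tumour 2 (0.15). In miR-222-3p tumours Lss was at -0.044 without the length offset and Scd1 at -0.11 with the reads of its copy, Scd2, added.

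The labels do not say whether tumours with the same number share a day or an EV preparation. The correlation of deviations averaged -0.04 over the 18 pairs of tumours with the same number, and 0.02 over pairs with different numbers, so the numbers were not taken as pairs. With the replicate block, the counts over all genes were 1 in miR-183-5p against ctrl and 9 in miR-183-5p against miR-222-3p, and 0 members were called. With 3 tumours a group, the precision is limited by the spread between tumours and not by depth. Of the reads summed over a member and a gene with a near-identical stretch, the other gene held at most 9.09% for Acat2 and Acat3, at most 1.67% for Fdps and its readthrough gene, and at most 0.80% for Acaca and its pseudogene. Scd2 held 83.6 to 94.1% of the Scd1 and Scd2 reads. Dhcr7 and Msmo1 share stretches of 201 to 221 bases with unrelated genes, which held up to 97.2% (D10Wsu102e) and 53.0% (Rpia) of the sum with Dhcr7, and up to 66.8% (Zmynd8) and 62.0% (Eapp) of the sum with Msmo1, so the split of reads from these stretches is uncertain.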

Other observations

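Between miR-183-5p and miR-142-5p tumours, the other pathway genes whose normalised counts did not overlap were Soat1, which esterifies cholesterol (log2 fold change 0.30, adjusted p = 0.588), Acacb (0.56, adjusted p = 0.575), Npc1, which exports cholesterol from lysosomes (-0.17, adjusted p = 0.861), Acsl3 (-0.37, adjusted p = 0.632) and Cyp27a1, a sterol hydroxylase (-1.21, adjusted p = 0.421). These are 2 of 33 higher and 3 of 33 lower, beside 5.92% and 6.44% of all genes, and none passed adjustment in the DESeq2 test. Between miR-183-5p and miR-222-3p tumours, Soat1 was higher without overlap (0.46, DESeq2 adjusted p = 0.723) and the LXR gene Nr1h3 lower (-0.45, DESeq2 adjusted p = 0.999429). This was 1 of 33 higher and 1 of 33 lower, beside 4.6% and 4.47% of all genes.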
